A study of Mus musculus with 131 samples.

Results

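Cytosolic sulfotransferases were followed in maturing mouse hepatocytes through 8 genes, Sult1a1, Sult1b1, Sult1c2, Sult1d1, Sult1e1, Sult2a7, Sult2b1 and Sult5a1, of the 24397 genes in the expression table. The genes were picked by name, with their RNA values in the knockout and control livers already known, so their RNA differences are given here as a description and without p-values. A member passed the filter on low values if its mean reached 1 FPKM (fragments per kilobase of transcript, scaled to the mapped fragments) in at least 1 condition. Of the 8 genes, 7 did so and Sult2b1 did not. Sult1e1 passed through only 1 condition, that in which it was highest.

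The study asked whether the loss of DNA methylation after birth takes part in the maturation of liver gene expression. All mice were C57Bl. Wild-type (WT) hepatocytes came from mice that were not injected, at 1 week (1 library that could be assigned), 3 weeks (3 libraries) and 15 weeks (3 libraries). Double knockout (DKO) mice carried floxed alleles of Tet2 and Tet3, which encode enzymes that oxidise 5-methylcytosine, and received an adeno-associated virus (AAV8) with Cre recombinase under the hepatocyte promoter Tbg, at 1 day of age (3 libraries) or at 3 weeks (2 libraries). Controls were WT mice given the same Cre virus at 1 day (3 libraries) or at 3 weeks (3 libraries). Cre and virus were thus shared by control and DKO mice. RRBS, a methylation assay described below, also covered 2 assigned mice with floxed insulin receptor alleles that received such a Cre virus after birth to delete the receptor from hepatocytes, and the labels give no age for them. A library of 5-hydroxymethylcytosine came from WT hepatocytes of 20 days. Injected mice were analysed at 15 weeks, and the adult WT mice of WGBS and histone ChIP-Seq were not injected. Hepatocytes were obtained by perfusion and gradient and sorted as CD45-negative cells. The ATAC-Seq and HNF6 ChIP-Seq libraries are labelled as liver. For ATAC-Seq the study describes adult hepatocytes, with deletion at 1 day in the DKO mice. Libraries of a condition are called A, B and C below in the order of the columns.

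Hepatocyte markers summed to 9607 FPKM or more in every library and those of bile duct cells to 2.10 FPKM or less, although Alb, itself a marker, was listed at 0 in all 18 libraries. Serpina1a, another abundant hepatocyte gene, was at 2504 FPKM at 3 weeks and listed at 0 in every 15 week library. An exact 0 in this table can therefore be a failed estimate, also where a sulfotransferase is listed at 0. Immune markers reached at most 5.39 FPKM and endothelial and stellate markers at most 11.9 FPKM. Erythroid markers stood at 1168 FPKM in the 1 week library and at 5.37 to 70.6 FPKM elsewhere. The deepest library was 1.42 times as deep as the shallowest. The 3 libraries of 3 week WT mice and control library C injected at 3 weeks had Xist above the Y chromosome transcripts, and the other 14 had the reverse. Of the targeted genes, Tet2 rose from 1.55 to 3.35 FPKM in DKO mice injected at 1 day (log2 difference 0.79 ± 0.20, limma adjusted p = 0.0173) and Tet3 was at 2.11 and 2.39 FPKM (0.12 ± 0.15, limma adjusted p = 0.612). A gene-level FPKM also counts reads outside deleted exons, so these values do not check the deletion.

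Cytosolic sulfotransferases move a sulfonate group from the donor PAPS (3′-phosphoadenosine-5′-phosphosulfate) to hydroxyl or amine groups of hormones, bile acids, neurotransmitters and drugs. The product is more soluble in water and is usually inactive and excreted. The liver is a main site of the reaction, and in mice several members differ between the sexes and between young and adult animals. Sult1a1 acts on simple phenols, Sult1b1 on thyroid hormones and phenols, Sult1d1 on catecholamines, and Sult1e1 on estrogens with high affinity. The Sult2a enzymes act on hydroxysteroids and bile acids, and Sult2b1 acts on sterols. Sult5a1 and Sult1c2 are less well characterised.

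All 8 genes lie on the minus strand of the mm9 genome. Sult1b1 (chr5:87942364-87967220), Sult1d1 (chr5:87983675-87998031) and Sult1e1 (chr5:88004993-88020636) are neighbours on chromosome 5. Sult2a7 (chr7:15050508-15078275), Sult2b1 (chr7:52985353-53014925) and Sult1a1 (chr7:133816384-133819871) are on chromosome 7, Sult5a1 (chr8:125666747-125682180) is on chromosome 8 and Sult1c2 (chr17:53968962-53985283) on chromosome 17. The mm9 annotation classes Sult2a7 as a pseudogene and the other 7 as protein coding. No stretch of 50 bases, the read length, in the spliced exons of any of the 8 genes was found in a protein-coding transcript of another gene or in another sulfotransferase gene.

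The sequences below are 200 bp tiles in which whole-genome bisulfite sequencing (WGBS) found less methylation in adult WT hepatocytes than in both newborn WT and adult DKO hepatocytes. They are shown for the 4 members whose RNA difference had a limma adjusted p under 0.05 in DKO mice injected at 1 day and for Sult1d1, which had the largest such difference near a start site. Letters run 5′ to 3′ along the gene, and the CpG sites, where methylation is read, are in capitals.
Sult2a7, tile over the annotated start, mm9 chr7:15078201-15078400, minus strand: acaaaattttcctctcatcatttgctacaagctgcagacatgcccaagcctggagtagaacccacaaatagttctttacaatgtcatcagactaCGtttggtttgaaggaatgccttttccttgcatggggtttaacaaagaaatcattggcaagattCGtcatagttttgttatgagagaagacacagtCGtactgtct
Sult1b1, tile in an exon, mm9 chr5:87967001-87967200, minus strand: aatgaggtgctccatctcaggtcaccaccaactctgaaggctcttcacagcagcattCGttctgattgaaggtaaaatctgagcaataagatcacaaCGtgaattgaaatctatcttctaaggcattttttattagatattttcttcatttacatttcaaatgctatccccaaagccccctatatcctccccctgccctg
Sult1c2, exonic tile at the start, mm9 chr17:53985401-53985600, minus strand: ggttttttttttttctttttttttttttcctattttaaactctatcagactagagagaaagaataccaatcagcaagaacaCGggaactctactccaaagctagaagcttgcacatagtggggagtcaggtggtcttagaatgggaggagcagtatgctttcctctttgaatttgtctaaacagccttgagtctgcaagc
Sult1d1, tile before the start, mm9 chr5:87998601-87998800, minus strand: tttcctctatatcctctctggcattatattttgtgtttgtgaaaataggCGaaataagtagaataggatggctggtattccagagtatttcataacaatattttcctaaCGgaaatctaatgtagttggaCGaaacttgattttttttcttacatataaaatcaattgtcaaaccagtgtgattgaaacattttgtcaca
Sult1e1, tile in an intron, mm9 chr5:88014401-88014600, minus strand: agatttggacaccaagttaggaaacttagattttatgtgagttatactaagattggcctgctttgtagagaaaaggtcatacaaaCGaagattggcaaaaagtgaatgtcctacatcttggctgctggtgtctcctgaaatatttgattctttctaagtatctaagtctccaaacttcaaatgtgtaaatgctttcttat
The tiles of Sult1c2 and Sult1e1 hold 1 CpG site and that of Sult1b1 holds 2. Those of Sult1d1 and Sult2a7 hold 3 sites each.

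The question of the first comparison was how sulfotransferase RNA in adult hepatocytes depends on TET2 and TET3 from birth onwards. In DKO mice injected at 1 day, Sult2a7 and Sult1e1 were higher and Sult1b1 and Sult1c2 lower than in the controls, and the abundant Sult1a1 and Sult1d1 overlapped with them. By limma, 4 of the 7 members tested passed an adjusted p of 0.05, 2 in each direction, where 20.0% of all genes tested did so, 4.33% higher and 15.6% lower. The members were chosen with this contrast known and Sult1e1 entered the test only through the DKO libraries in which it is high, so nothing is read from this count. The median log2 difference was 0.34 over these 7 members and -0.11 over all genes tested. In bulk RNA, fewer cells that express a gene and less RNA per cell cannot be told apart. Summed markers of erythroid cells were at 11.9 to 15.2 FPKM in the DKO libraries and 52.8 to 70.6 FPKM in the controls. This sum was mostly Alas2 (10.8 to 13.7 and 50.9 to 70.5 FPKM). By limma 1 of 5 erythroid entries was called lower and 0 higher, and their median log2 difference was 0.22. Summed markers of bile duct cells (0.0242 to 0.0701 and 0.206 to 0.405 FPKM) and of endothelial and stellate cells (1.28 to 2.30 and 2.46 to 3.56 FPKM) were also lower in the DKO libraries. The part of these cells in the differences was not tested.

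Sult2a7 was listed at 19.5, 29.5 and 32.5 FPKM in DKO libraries A, B and C and at 0.479, 0.925 and 0.888 FPKM in the controls. All DKO libraries thus lay above all controls, as was the case for 11.4% of all genes tested. The means were 27.2 ± 6.83 (SD, n = 3) and 0.764 ± 0.248 FPKM (SD, n = 3), a 35.5-fold difference and 3.98 ± 0.33 (SE) on the log2(FPKM + 1) scale, which understates changes of low genes. The gene made up 14.7 to 19.9% of the summed FPKM of the 8 members in the DKO libraries and 0.473 to 1.05% in the controls. It thereby went from rank 6 among the members in the controls to rank 2 in the DKO mice.

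Sult1e1, the estrogen sulfotransferase, was nearly silent in adult controls, with 0.0239, 0.0551 and 0.0296 FPKM in libraries A, B and C. From the spacing of the smallest values these correspond to 1, 2 and 1 reads. The DKO libraries held 1.87, 14.2 and 1.14 FPKM, or about 64.7, 535.5 and 47 reads. All 3 lay above the controls, but library B was far above the other two. The difference was 2.13 ± 0.48 on the log2(FPKM + 1) scale and 1.26 ± 0.10 without DKO library B. The call was lost when only these 2 conditions were fitted.

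Sult1b1 moved the other way. Its levels were 1.17, 1.55 and 1.06 FPKM in the DKO mice and 3.82, 3.47 and 6.12 FPKM in the controls, with no overlap, as for 29.2% of all genes tested. The mean was 3.55-fold lower (1.26 ± 0.257 against 4.47 ± 1.44 FPKM, SD, n = 3 each), a log2 difference of -1.25 ± 0.20. Sult1c2 was also lower in every DKO library, at 0.148, 0.204 and 0.436 FPKM against 0.634, 0.636 and 1.29 FPKM. Its difference of -0.54 ± 0.18 no longer passed the threshold without the filter on low values or when any one of 5 of the 6 libraries was left out. With only these 2 conditions it fell under the filter and was not tested.

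The other members stood within the control range in at least 1 DKO library. Sult5a1 was at 17.9, 22.8 and 13.2 FPKM in the DKO mice and at 9.97, 5.89 and 14.3 FPKM in the controls (0.82 ± 0.35). Sult1a1, the most abundant member, was at 56.8, 99.5 and 96.9 FPKM against 71.2, 63.7 and 97.3 FPKM (0.10 ± 0.22). Sult1d1 was at 15.0, 32.6 and 17.9 FPKM against 15.1, 13.7 and 20.3 FPKM (0.34 ± 0.27). Sult2b1 was listed at 0 in all 6 libraries. With a rescaling by median ratios, the median of all genes shifted by 0.11 and 50.0% instead of 21.7% of the called genes were higher in the DKO mice. The same 4 members were called with it.

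**Figure D1:**
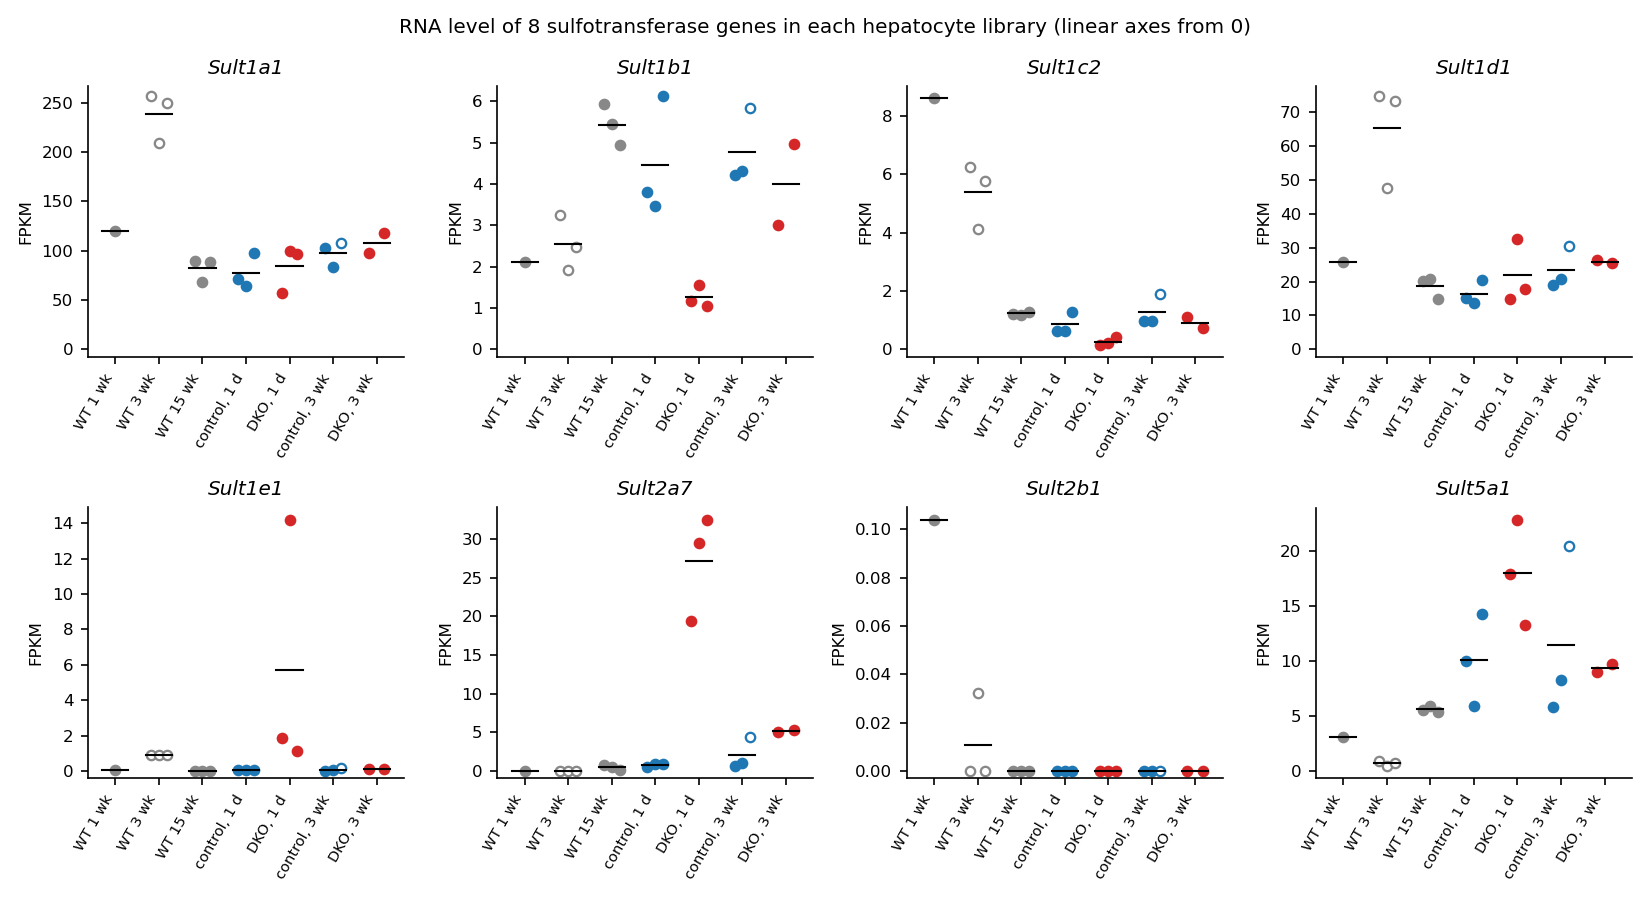
FPKM (vertical axes, linear) of the 8 genes in each library, by condition: WT at 3 ages, and controls and DKO mice injected at 1 day (1 d) or 3 weeks (3 wk) and analysed at 15 weeks. Points are libraries, lines are means and open points are libraries with Xist above Y transcripts. Sult2a7 reached 19.5 to 32.5 FPKM only in DKO mice injected at 1 day, and Sult1a1, Sult1c2 and Sult1d1 were above all 15 week WT libraries in the 3 libraries of 3 weeks.

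Deletion at 3 weeks was compared in the same way, to see whether a later loss of the enzymes had the same outcome. By limma, 0 of 7 members passed the threshold, where 5.25% of all genes did so (0.905% higher and 4.34% lower), and 1 member, Sult2a7, had an unadjusted p under 0.05. Sult2a7 was at 5.10 and 5.28 FPKM in the DKO mice and at 0.685, 1.05 and 4.43 FPKM in the controls. The DKO libraries were above the controls (2.53-fold, 1.22 ± 0.37), as for 16.0% of all genes, and the highest control was library C, the one with Xist above Y transcripts. Without library C the difference was 1.74 ± 0.22 and passed the threshold, as it also did with median-ratio scaling.

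The other 6 members tested had overlapping libraries after deletion at 3 weeks, where 32.4% of all genes were lower in both DKO libraries than in every control. Sult1b1 was at 3.01 and 4.98 FPKM in the DKO mice and 4.22, 4.30 and 5.83 FPKM in the controls. Sult1e1 remained low, with 0.102 and 0.0943 FPKM against 0, 0.0222 and 0.159 FPKM, which is at most 7 reads. Log2 differences of these 6 members ran from -0.23 to 0.17. Sult5a1 in control library C, at 20.4 FPKM, was higher than in libraries A and B (5.80 and 8.22 FPKM) and than in both DKO libraries (9.01 and 9.70 FPKM).

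The effect of the deletion was then compared between the injection times within the fit. The difference of Sult2a7 was larger after injection at 1 day by 2.75 ± 0.49 log2 units, which passed the threshold, as 5.36% of all genes did, 2.33% in this direction and 3.04% in the other. This contrast holds the values by which the gene was chosen and is given as a description. Without control library C it was larger by 2.24 ± 0.29, an alternative chosen after seeing the data, and still passed. Sult1e1 (2.08 ± 0.72) and Sult1b1 (-1.02 ± 0.30) did not pass with the pseudocount of 1. Both passed with a pseudocount of 0.1, and Sult1b1 passed with median-ratio scaling. These genes too were chosen with their values known, and Sult1e1 entered the test only through the DKO libraries in which it is high. Their calls are a description and no support for a difference between the injection times.

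**Figure D2:**
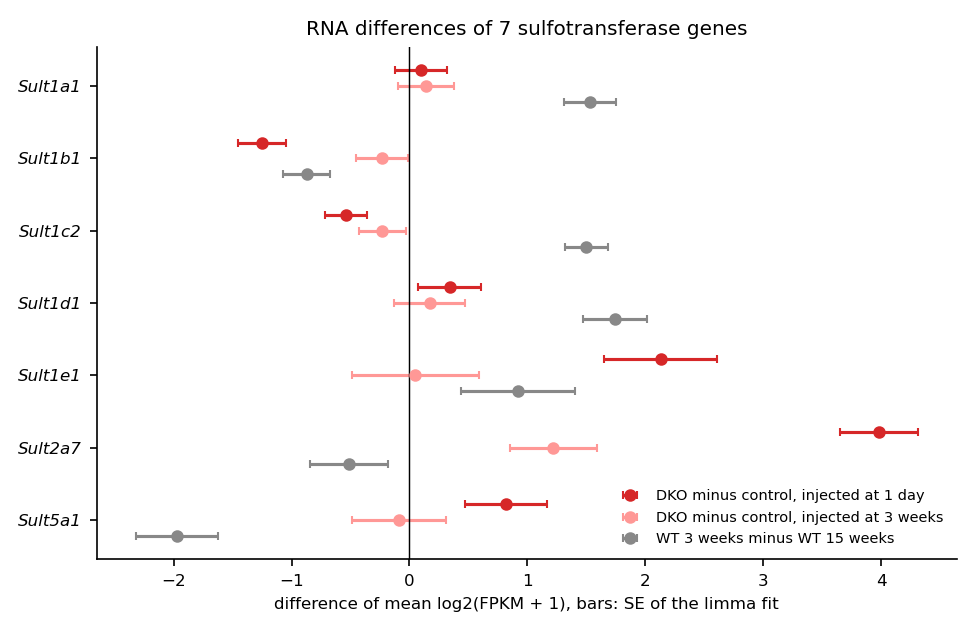
Differences in mean log2(FPKM + 1) of 7 genes (horizontal axis) between DKO and control mice injected at 1 day or at 3 weeks, and between WT mice of 3 and 15 weeks. Bars are SE of the limma fit over 18 libraries. Sult2a7 stands at 3.98 after injection at 1 day and at 1.22 after injection at 3 weeks.

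Sulfotransferase RNA also differed with age in WT hepatocytes. At 3 weeks Sult1a1, Sult1d1 and Sult1c2 were higher and Sult1b1 and Sult5a1 lower than at 15 weeks. By limma 5 of 7 members were called, 3 higher and 2 lower, where 33.3% of all genes were called, 9.32% higher and 24.0% lower. All 3 libraries of 3 weeks had Xist (48.0 to 77.1 FPKM) and at most 0.0741 FPKM of Y transcripts, and all 3 of 15 weeks had the reverse (Xist at most 0.0272 FPKM, Y transcripts 33.6 to 40.5 FPKM). Age and the difference in sex chromosome transcripts cannot be told apart here.

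Sult1a1 was at 257, 209 and 249.6 FPKM at 3 weeks and at 89.5, 68.6 and 88.3 FPKM at 15 weeks, 2.90-fold higher (1.53 ± 0.22). Sult1d1 was at 74.7, 47.6 and 73.4 FPKM against 20.3, 20.8 and 14.9 FPKM, 3.50-fold higher (1.74 ± 0.27). Sult1c2 was at 6.24, 4.14 and 5.76 FPKM against 1.22, 1.19 and 1.28 FPKM, 4.37-fold higher (1.50 ± 0.18). In each of these genes the groups were apart, as in 11.3% of all genes in that direction. Sult5a1 was 8.18-fold lower at 3 weeks, with 0.873, 0.474 and 0.701 FPKM against 5.51, 5.90 and 5.35 FPKM (-1.97 ± 0.35). Sult1b1 was 2.13-fold lower, with 3.25, 1.92 and 2.47 FPKM against 5.93, 5.44 and 4.93 FPKM (-0.87 ± 0.20). Groups were apart in that direction in 32.3% of all genes. Sult1e1 had 0.881, 0.885 and 0.906 FPKM at 3 weeks, about 30.5 to 33 reads, and was listed at 0 in all 15 week WT libraries. Sult2a7 was listed at 0 in all libraries of 3 weeks and at 0.708, 0.445 and 0.172 FPKM at 15 weeks. These zeros of Sult1e1 and Sult2a7 may be failed estimates. Neither passed the threshold with a pseudocount of 1, and both did with 0.1.

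The 1 week library held 120.4 FPKM of Sult1a1, 25.8 of Sult1d1, 8.61 of Sult1c2, 3.10 of Sult5a1 and 2.11 of Sult1b1. With 1 library there is no replicate check and no test. Of the 7 members, only Sult1c2 was at least 1 log2 unit from every 15 week library (by 2.07 to 2.14), where 14.4% of all genes were (8.62% higher and 5.74% lower). Sult2b1 had its highest level of any library here, at 0.104 FPKM or 3 reads, and 1 read in 1 of the 17 other libraries.

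Sult1a1 ranked highest of the members in all 7 conditions, with 49.7 to 79.2% of their summed FPKM over the libraries. Its share was 49.7 to 59.4% in DKO mice injected at 1 day and 69.4 to 72.1% in their controls. Sult1d1 had rank 2 in the other 6 conditions and rank 3 in these DKO mice (21.8 ± 9.42 FPKM, SD, n = 3), where its libraries overlapped with those of Sult2a7 and Sult5a1. In 15 week WT mice Sult5a1 (5.59 ± 0.287 FPKM, SD, n = 3) and Sult1b1 (5.43 ± 0.498 FPKM, SD, n = 3) did not differ beyond their spread, and Sult1c2 (1.23 ± 0.0489 FPKM, SD, n = 3) lay below both. Sult2a7 and Sult1c2 overlapped in the controls of both injection times.

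Over the 18 libraries the gene whose log2(FPKM + 1) was most like that of Sult1a1 was Sult1d1 (Pearson r = 0.932), followed by Cyp2a22 (0.908), and Sult1d1 was next most like Fmo2 (0.913). Sult1b1 was most like Fam25c (0.972) and Akr1c6 (0.971), Sult1c2 most like Pcp4l1 (0.971) and Idh2 (0.969), and Sult5a1 most like Tmem30a (0.920) and Mfsd6 (0.919). Sult2a7 was most like Gria3 (0.947) and Oas1g (0.938), and Sult1e1 most like Chil1 (0.897) and Mir328 (0.881). These values describe 18 libraries that share their conditions.

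Other members of the family were compared with these genes. Of 12 in the table, 10 were tested, and in DKO mice injected at 1 day 1 rose and 1 fell, where 4.33% of all genes rose and 15.6% fell. Sult4a1, known as a brain form, was at 0.583, 1.06 and 1.42 FPKM, about 39, 77 and 113 reads, and at no more than 2 reads in each control (0.98 ± 0.10 on the log2 scale). It passed the filter only through this condition, in which it is high, so no p-value is given. 2810007J24Rik, another gene of the Sult2a family, fell from 159 to 86.5 FPKM (-0.84 ± 0.23, limma adjusted p = 0.0223). None of the 6 genes Sult2a1 to Sult2a6 passed the threshold (log2 differences 0.03 to 0.49, limma adjusted p 0.668 to 0.934). Sult2a1 was at 0.0719 to 0.818 FPKM in these DKO mice and at 0.0224 to 0.0343 FPKM in the controls (0.49 ± 0.70, limma adjusted p = 0.668). In WT mice all 6 were higher at 3 than at 15 weeks, as were 9.32% of all genes. Sult2a1 had 533 to 739 FPKM against at most 0.0294 FPKM (limma adjusted p = 3.75e-07). 2810007J24Rik was lower (-2.19 ± 0.23, limma adjusted p = 9.31e-06), as were 24.0% of all genes. These WT ages also differed in Xist and Y transcripts, so the differences and p-values cannot be assigned to age. In control library C Sult2a1 was at 13.0 FPKM and Sult3a1 at 127 FPKM, against at most 0.0249 FPKM of Sult2a1 and 0.0308 FPKM of Sult3a1 in libraries A and B.

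Sulfotransferases depend on PAPS. Of 9 genes tested for PAPS supply and sulfate transport, 2 fell and 1 rose in DKO mice injected at 1 day, where 15.6% of all genes tested fell and 4.33% rose. Papss2, which makes PAPS in liver, was at 33.5, 25.7 and 33.6 FPKM in the controls and at 11.1, 13.7 and 15.3 FPKM in the DKO mice (-1.15 ± 0.26, limma adjusted p = 0.00908). Cdo1, which starts cysteine oxidation to sulfate, fell by 0.76 on the log2 scale (limma adjusted p = 0.0332), and the sulfate transporter Slc26a1 rose by 0.53 (limma adjusted p = 0.0445). After injection at 3 weeks Papss2 alone of this list passed, with 14.6 and 11.3 FPKM against 34.6, 32.1 and 67.3 FPKM (-1.64 ± 0.29, limma adjusted p = 0.00809), where 4.34% of all genes fell. Of 6 sulfatases and their helpers, which remove sulfate, Arsg fell after injection at 1 day (-0.74 ± 0.14, limma adjusted p = 0.00320) and none passed after injection at 3 weeks.

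Glucuronosyltransferases, the parallel conjugating enzymes, gave 4 lower and 0 higher of 15 tested after injection at 1 day, where 15.6% of all genes were lower and 4.33% higher. The largest falls were in Ugt1a5 (16.7 to 0.679 FPKM, limma adjusted p = 1.82e-05), Ugt2a3 (142 to 45.2 FPKM, limma adjusted p = 0.000120) and Ugt3a1 (58.0 to 30.0 FPKM, limma adjusted p = 0.00658). After injection at 3 weeks 1 was higher and 1 lower (0.905% and 4.34% of all genes). In WT mice 14 of 15 were lower at 3 than at 15 weeks, as were 24.0% of all genes. Of the 7 sulfotransferase members tested, 2 were lower and 3 higher, where 9.32% of all genes were higher. Age and the difference in sex chromosome transcripts cannot be told apart in this comparison.

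Of 15 regulators tested that are known to act on sulfotransferase genes, 5 fell and 0 rose after injection at 1 day, where 15.6% of all genes fell and 4.33% rose, with a median difference of -0.44 against -0.11 over all genes. Nr1i3, the nuclear receptor CAR, was at 1.74 to 2.04 FPKM in the DKO mice and at 30.8 to 33.0 FPKM in the controls (-3.48 ± 0.35, limma adjusted p = 1.96e-05). Hnf4a fell by 0.64 (limma adjusted p = 0.0362) and Stat5b by 0.57 on the log2 scale (limma adjusted p = 0.0453). Among genes with sex-biased liver expression, 4 of 8 male-biased genes fell (15.6% of all genes), among them Elovl3 (183 to 15.4 FPKM, limma adjusted p = 0.0202), Hsd3b5 (93.7 to 13.2 FPKM, limma adjusted p = 0.0253) and Cyp7b1 (limma adjusted p = 0.00540). Among 11 female-biased genes, Cyp2a4 fell (limma adjusted p = 0.00307). In these 6 libraries Y transcripts were above Xist in all, and the part of these genes in the sulfotransferase differences was not tested. After injection at 3 weeks Stat5b was among the regulators that fell, and Cyp2a4 fell too, with control library C at 449 FPKM of Cyp2a4 against 65.8 and 72.3 FPKM.

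**Figure D3:**
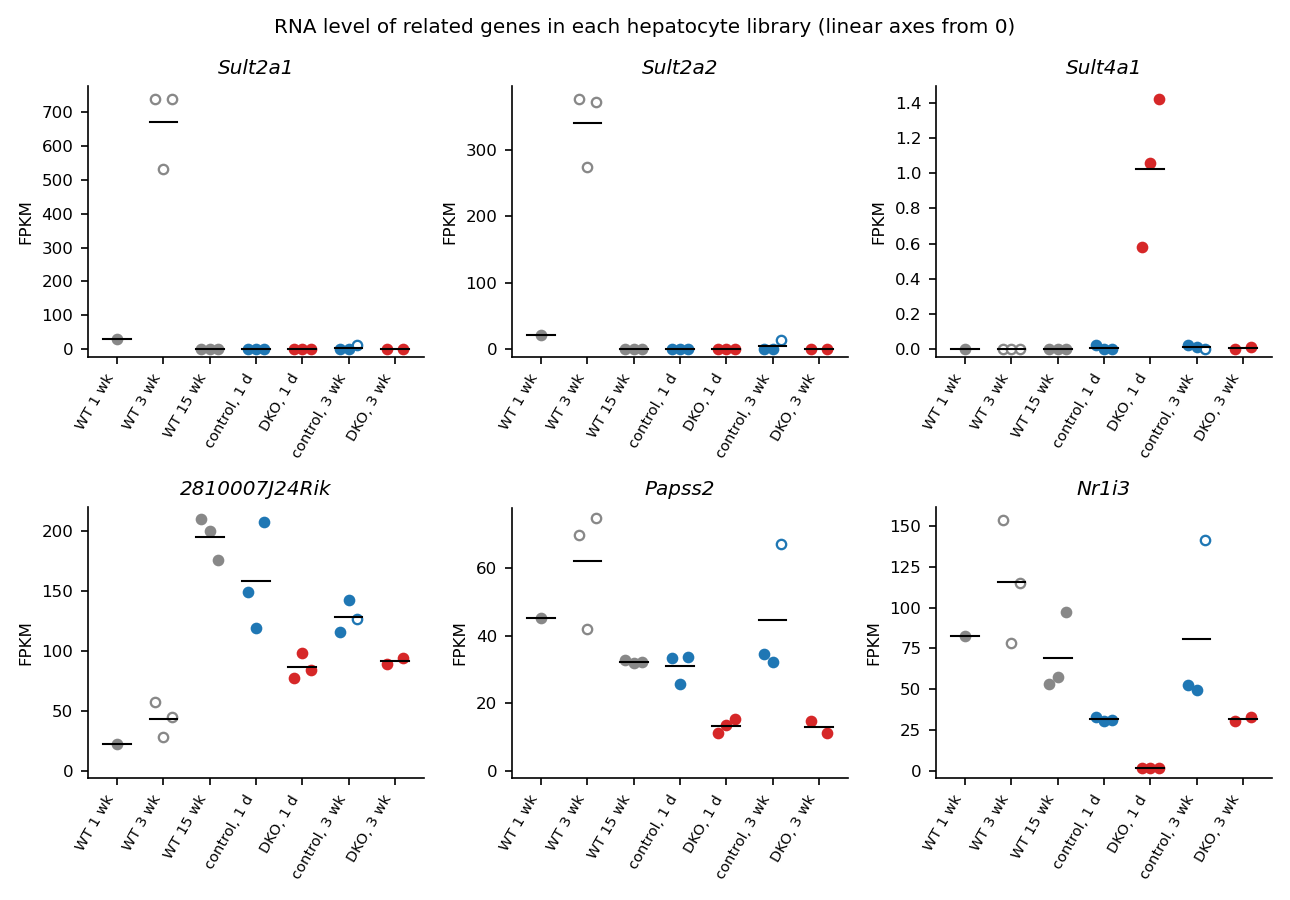
FPKM (vertical axes, linear) of 6 related genes in each library, drawn as for the 8 members: points are libraries, lines means, open points libraries with Xist above Y transcripts. Sult4a1 was above 0.5 FPKM only in DKO mice injected at 1 day, and Papss2 was at 15.3 FPKM or less in both kinds of DKO mice.

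DNA methylation near the genes was read in 200 bp WGBS tiles within each gene and 5 kb on each side. The values come from 1 newborn WT, 1 adult WT and 1 adult DKO library injected at 1 day, so they have no replicates and no test, and the depth behind each is unknown. In 27 of 694 tiles (3.89%) the adult lay 35 points or more below both other libraries, against 1.15% of tiles genome-wide. Taken singly, the adult lay that far below the newborn in 1 to 11 tiles per member (1.63% of tiles genome-wide), and the DKO library lay that far above the adult in 1 to 13 (1.98% genome-wide) and below it in 1 tile, near Sult2b1 (0.240% genome-wide). No tile of the 8 windows lay that far above the newborn in the adult, where 0.261% did genome-wide. All-tile means were 78.7% in the newborn, 75.8% in the adult and 76.4% in the DKO library.

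The tiles were unevenly spread over the members. Sult1a1 had 9 of 56, Sult1d1 8 of 62 and Sult1e1 9 of 72, while Sult1c2 and Sult5a1 had 2 each (of 90 and 111) and Sult1b1, Sult2a7 and Sult2b1 1 each (of 69, 83 and 165). The windows of Sult1d1 and Sult1e1 overlap and share 6 of these tiles, which lie between the genes. Those shared tiles had 39.2 to 92.9% methylation in the newborn, 2.56 to 40.0% in the adult and 51.6 to 86.1% in the DKO library. Of the 9 tiles near Sult1a1, 7 lie over the neighbouring gene Ccdc101. Of all 27, 8 were in introns, 3 in exons and 16 outside the member gene.

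Close to the start sites, 4 of the 66 tiles within 1 kb met the rule. They include the tiles shown above for Sult2a7, Sult1b1, Sult1c2 and Sult1d1. In the Sult1d1 tile, at -670 bp from the start, methylation was 86.4% in the newborn, 7.08% in the adult and 82.9% in the DKO library. The Sult1c2 tile, at -218 bp in an annotated exon, went from 52.4% to 0%, with 70.8% in the DKO library, and the Sult1b1 tile, 120 bp into the gene, from 51.3% to 5.56%, with 43.5% in the DKO library. The adult value was near 0 in these 3 tiles. In the Sult2a7 tile, centred at -26 bp, the fall was to 50.0% from 88.0%, with 88.2% in the DKO library. RNA of the genes did not follow 1 direction, since Sult1b1 and Sult1c2 were lower in the DKO mice, Sult2a7 higher and Sult1d1 overlapping.

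Distances are from the tile's centre. Farther inside the genes, the Sult1e1 tile 6136 bp from the start was at 70.8% in the newborn, 0% in the adult and 93.5% in the DKO library. Sult1a1 had an intronic tile at 83.3, 22.2 and 83.3%, and Sult5a1 had one, also over Gm20388, at 68.8, 7.14 and 63.3%. Averaged over all tiles within 1 kb of the start, Sult1d1 had 35.1, 5.34 and 25.1% in the newborn, adult and DKO libraries. Sult1a1 had 44.8, 27.2 and 48.4%, and Sult1b1 had 74.8, 58.3 and 71.0%. These 3 were at least 10 points lower in the adult than in both others, as were 4.09% of 19913 genes. For Sult1e1 the means were 87.2, 89.2 and 85.1%, and for Sult2a7 81.5, 77.4 and 80.2%, so that the start sites of the 2 genes with higher RNA in the DKO mice had mean methylation of 77.4% or more in all 3 libraries. The mean for Sult2a7 covers a tile that lay far lower. This tile, just upstream of the start (chr7:15078401-15078600, centred at -226 bp), was at 17.4% in the newborn, 0% in the adult and 32.4% in the DKO library, a difference from the adult under the 35-point limit.

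**Figure D4:**
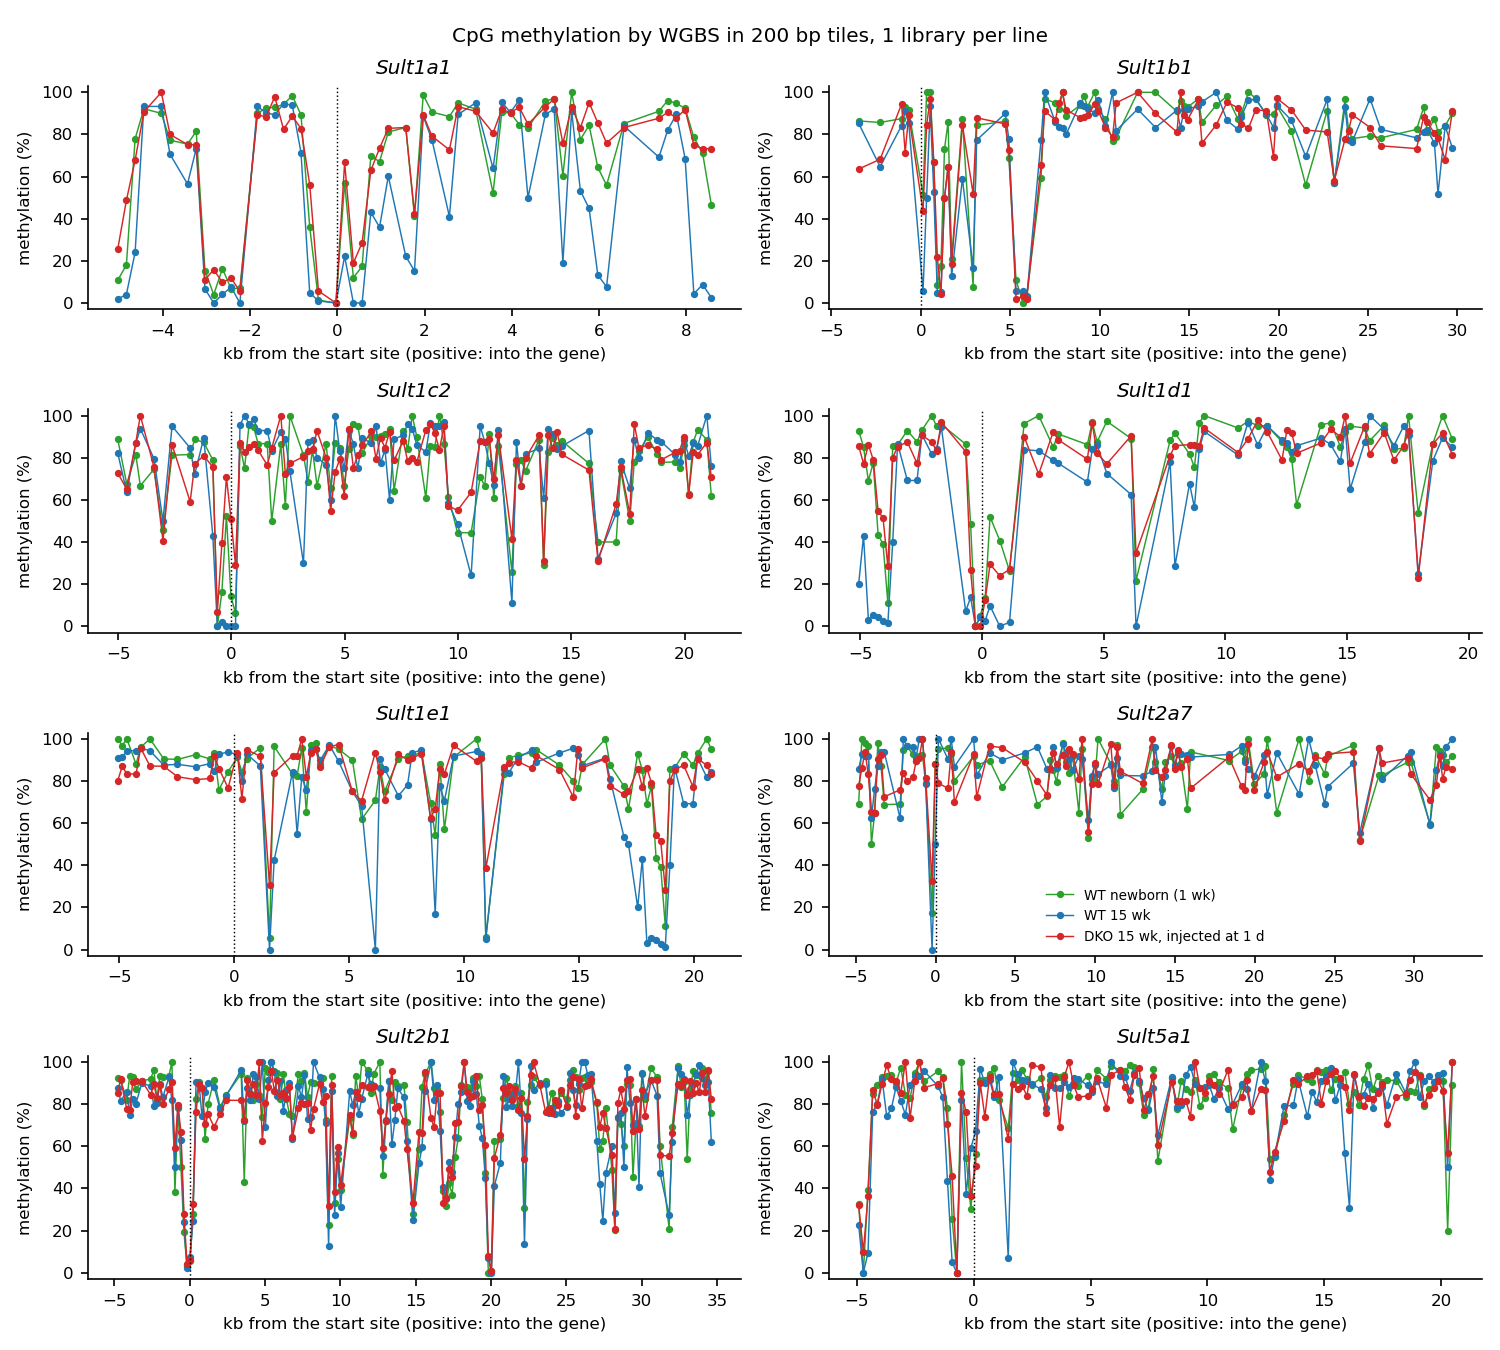
Methylation in percent (vertical axes) of WGBS tiles against distance in kb from the start site, with positive values into the gene, for the 8 genes. Lines are 1 library each: newborn WT, 15 week WT and 15 week DKO injected at 1 day. The adult line falls below both others next to Sult1d1, downstream of Sult1e1 and over several tiles near Sult1a1, where 9 of 56 tiles met the rule.

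Reduced representation bisulfite sequencing (RRBS), which reads 100 bp tiles near restriction sites, covered few of these places. No tile with values in the assigned samples lay near Sult1b1, Sult1d1, Sult1e1 or Sult2a7. Of 31 tiles tested near Sult1a1, Sult1c2, Sult2b1 and Sult5a1, 0 were called between DKO (2 mice) and control mice (3) injected at 1 day by limma with an adjusted p under 0.05 and at least 35 points, where 1.20% of all tiles were (0.0368% lower in DKO mice). Of the 31 tiles 3 had an unadjusted p under 0.05, and 1 an adjusted p under 0.05 with less than 35 points. The largest difference near Sult1a1 was in a tile downstream of Sult1a1 with 93.8 and 90.5% in the DKO mice and 80.4, 84.1 and 72.9% in the controls.

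After injection at 3 weeks 0 of 26 tiles were called, where 0.374% of all tiles were (0.0345% lower in DKO mice), and 1 had an unadjusted p under 0.05. The largest difference was in a tile of Sult2b1 (chr7:53010701-53010800), at 100.0% in both DKO mice and at 55.2, 47.2 and 88.6% in the controls (36.3 ± 10.0 points, limma adjusted p = 0.263). All DKO values were above the controls, but this tile was picked as the largest difference of the 26. How many of all tiles were apart in this way was not counted, so nothing is read from it. On a logit scale 1 member tile was called, as was 1 without the third control. Between WT mice of 3 weeks and controls injected at 1 day 0 of 26 tiles were called (0.251% of all tiles, 0.0260% lower), with 2 at an unadjusted p under 0.05, and between mice without the insulin receptor and those controls 0 of 16 (0.445%, 0.158% higher), with 2 at an unadjusted p under 0.05.

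Peaks were called in each library. ATAC-Seq peaks, which mark open chromatin, were found in both WT libraries at 13 places near the members, and 0 of them lacked a peak in both DKO libraries, where 7.34% of all such peaks did. Sult2a7 had no ATAC-Seq peak in any of the 4 libraries. At the Sult1b1 start the peaks held 4.12 and 7.20 normalized tags (per 10000000) in WT and 12.9 and 11.3 in DKO livers, and at the Sult1d1 start 4.53 and 6.65 in WT and 11.4 and 9.75 in DKO livers. Neither start site lost its peak in DKO livers. At the Sult2b1 start the peaks held 2.77 and 3.14 tags in WT and 4.08 and 4.93 in DKO livers. The libraries overlapped at the Sult1a1 start, with 12.6 and 5.54 tags in WT and 6.55 and 7.87 in DKO livers. They also overlapped farther upstream of the Sult1c2 start, with 6.69 and 22.2 tags in WT and 19.6 and 17.6 in DKO livers. Differences in tags were not tested. The share of all peaks with both DKO libraries above both WT libraries was not counted, so nothing is read from these values. HNF6, a hepatocyte transcription factor, had 0 places near a member with a peak in both WT libraries, so none could be lost, where 5.01% of all such peaks had none in DKO livers. DKO library B, with 34665 HNF6 peaks in all against 4387 to 9355 in the other 3, had 1 at -328 bp from the Sult2a7 start (11.2 tags). That library had HNF6 peaks near all members except Sult2b1, among them at the Sult1b1 and Sult1c2 starts (14.9 tags each), so this was not particular to Sult2a7.

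Histone marks of enhancers were compared in 1 adult WT and 1 DKO library injected at 1 day per mark, so the differences have no replicate check. Of 16 H3K27ac peaks of the DKO library near members, 9 had no WT peak over them, where 40.6% of all DKO peaks did. Of 9 WT peaks 1 had no DKO peak over it, where 34.5% of all WT peaks did. For H3K4me1 the counts were 5 of 21 DKO peaks (27.4% over all) and 3 of 17 WT peaks (20.6% over all).

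At Sult2a7, H3K27ac had no WT peak and 3 DKO peaks of 9.80, 7.26 and 6.53 tags, all below the median of 18.5 tags for that library. The first of these reached into the tile shown above. H3K4me1 at the start was 15.1 tags over 641 bp in WT and 49.4 tags over 2253 bp in DKO hepatocytes. At the Sult1e1 start H3K4me1 covered 4016 bp with 77.0 tags in the DKO library, and the nearest WT peak held 7.40 tags over 501 bp. H3K27ac peaks of 12.0 and 10.9 tags stood inside Sult1e1 in the DKO library only. H3K27ac peaks without a WT peak over them were also found at Sult1d1 (2 of 5 DKO peaks), Sult1b1 (1 of 2) and Sult5a1 (1 of 3), so they were not particular to the genes with higher RNA in DKO mice.

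Sult1c2, lower in DKO mice, had the opposite. Its start carried an H3K27ac peak of 38.6 tags over 1488 bp in WT and none in the DKO library, while H3K4me1 was at 54.5 and 66.1 tags. Sult1b1, also lower in RNA, kept its H3K27ac peak, with 117 tags over 2327 bp in WT and 138 tags over 3289 bp in DKO hepatocytes, and had a further peak of 6.90 tags inside the gene in the DKO library only. Sult5a1 had 43.0 tags over 1859 bp at its start in WT and 154 tags over 4933 bp in the DKO library. The single broad H3K27ac peak over Sult1a1 held 436 tags over 14736 bp in WT and 839 tags over 16434 bp in the DKO library. Between Sult1d1 and Sult1e1, where the shared tiles lie, H3K27ac had a peak of 78.9 tags over 1447 bp in WT and of 28.7 tags over 1326 bp in the DKO library. Sult2b1 had no H3K27ac peak in either library.

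**Figure D5:**
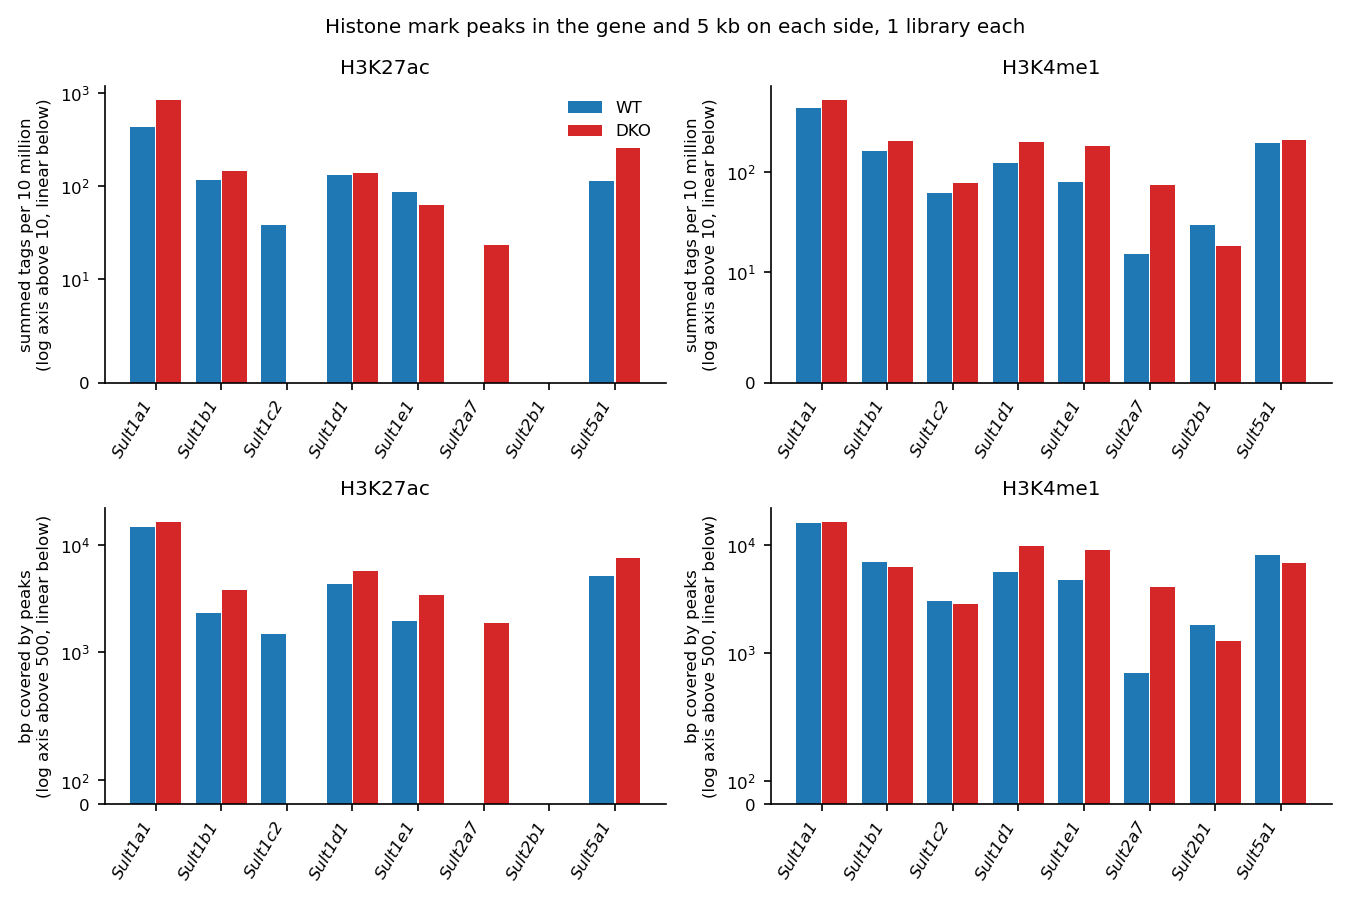
Summed normalized tags per 10000000 (upper panels) and base pairs covered by peaks (lower panels) for H3K27ac and H3K4me1 in each gene and 5 kb on each side, in 1 WT and 1 DKO library. Axes are linear near 0 and logarithmic above the values marked on the axes. H3K27ac peaks near Sult2a7 occur in the DKO library alone and near Sult1c2 in the WT library alone.

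Peaks of 5-hydroxymethylcytosine (5hmC), the product of TET enzymes, were present near all 8 members in WT hepatocytes of 20 days (47 peaks, 5.55 to 51.2 tags, 1 library). A peak of 11.1 tags lay over the Sult1e1 tile and one of 9.12 tags over part of the shared tiles. Sult2a7 had 6 peaks, of which the nearest to the start was 653 bp into the gene (7.54 tags).

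The regions from 250 bp before to 50 bp after the start held 0 to 16 CpG sites, with a median of 3.00 over the 8 members and 14.0 over 20952 genes. Sult2b1 was the member with 16. The motif TATAAA, searched on both strands as were the others, was found at Sult1d1 (12.8% of all genes). AGGTCA, a core site of nuclear receptors, was found at Sult1b1 and Sult1e1 (13.5% of all genes). ATTGAT (6.74% of all genes) and TTCNNNGAA (7.78%) were in none of the 8 windows.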

How the data were processed

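The members and gene lists were chosen with earlier results of these data known. The authors deposited FPKM per gene (polyA RNA of hepatocytes, 50 bp reads, cutadapt 1.15, Bowtie2 2.2.4, TopHat2 and Cufflinks, mm9). They deposited methylation as a fraction per tile, without the coverage of each tile. RRBS (100 bp tiles) was processed with Trim Galore 0.3.3 and BSMAP 2.74, with a stated minimum coverage of 10 CpGs. For WGBS (200 bp tiles) the stated minimum coverage was 15 CpGs. The authors called HOMER peaks in each library, and the deposited columns give a signal (normalized tags per 10000000) and a peak score.

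The filter on low values (mean of 1 FPKM or more in any condition) left 11166 genes, whose log2(FPKM + 1) values entered 1 fit of all 18 libraries in limma 3.58.1 (R 4.3.3), with trend and Benjamini-Hochberg adjustment. RRBS fractions were fitted in the same way without trend over 14 hepatocyte samples. Both were tested on simulated data. Peaks overlapped by at least 1 bp. Column names carry animal numbers, and nothing more says how libraries of a condition were kept apart, so p-values measure the spread between these samples, part of which may be technical. Of the sample columns, 49 were not used, since they were matched to no sample or condition used here. RRBS columns without a condition in their name were assigned through animal numbers shared with the expression table (12 columns). Read depths are not given.

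Named were all 8 members, up to 3 called genes of each other list by size of difference, the targeted genes and sex chromosome transcripts, and the 2 genes most like each member. Sult3a1, Sult2a1 after injection, and Nr1i3 after injection at 3 weeks were named after their values were seen. Alternatives were another pseudocount, no filter, only the compared conditions, median-ratio scaling, leaving out libraries, logit fractions, and other limits and windows. Some results for genes of the related lists are not reported here.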

Additional observations from a re-analysis of the deposited data

Results flagged for a closer look

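Of all genes, 5.36% were called by the interaction contrast of the limma fit, and 3 of the called genes are given here. Sult2a7 was chosen with its values in this contrast known, so its call is a description and no support for a difference. For Sult2a7 the DKO minus control difference was larger after injection at 1 day than at 3 weeks, by 2.75 ± 0.49 log2 units. For Sult4a1 it was larger by 0.99 ± 0.15, but this gene passed the filter on low values only through the DKO mice injected at 1 day, in which it is high, so its call is no support for a difference. For Nr1i3 the difference of differences was -2.33 ± 0.52 (limma adjusted p = 0.0351), with 30.7 and 32.7 FPKM in DKO mice injected at 3 weeks and 52.4, 49.4 and 141 FPKM in their controls, the last being control library C. The cause was not tested.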

How the results depend on the processing

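Over 28 pairs of a member and a comparison, 217 of 227 recalculated differences kept their sign, and those that changed sign belonged to differences not called. No paired analysis was possible because the columns of the expression table carry no replicate numbers. The share of tested genes called after injection at 1 day (20.0%, 2228 genes) ranged from 7.84% to 20.6% when 1 library was left out, moving by over 1.5 times without DKO library A (8.92%, 997 genes) or C (12.1%, 1357) or control library C (7.84%, 876). After injection at 3 weeks (5.25%, 586 genes) it was 12.2% (1358) with median-ratio scaling, 1.91% (370) without the filter, which raised the number of genes tested, 0.560% (56) with only the 2 conditions and 0.475% to 3.70% without 1 library, lowest without DKO library B (53 genes) and control library A (206), with 2.90% (325) without DKO library A. Scaling changed the share of higher genes from 17.2% to 50.7% there and from 28.0% to 50.8% between WT ages, and shifted the median of the latter by 0.15. The difference between injection times (5.36%, 599 genes) gave 20.1% (2245) with scaling and 2.57% (287) without control library C, the latter chosen after seeing the data. A limit of 0.5 log2 units gave 3546 genes at 1 week (1603). On a logit scale called RRBS tiles went from 1802 to 1092 (injection at 3 weeks), 1217 to 700 (3 weeks of age) and 1425 to 612 (InsR KO). Left-out samples gave 1134 to 2112 tiles for injection at 3 weeks, with 1165 without control A and 1134 without control B, and 4548 to 6244 for injection at 1 day (6222). WGBS tiles near members (27) were 45 at 25 points and 13 at 50. ATAC-Seq peaks lost in DKO livers (2614) were 4170 with 50% overlap and 824 among the top 50% of peaks, and HNF6 peaks (189) were 102 among the top 50%. The cause was not tested. Single WGBS, histone and 5hmC libraries, and tiles with 1 CpG, limit what can be read from them.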
